A study of Sorghum bicolor with 12 samples.

Results

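The response of droughted Sorghum bicolor leaves to a heat shock was examined here, with every transcript on the array that was measurable in heated or unheated droughted plants. The combined group was without water for 3 days and was then held at 50°C for 3 h, and the drought group was without water for 3 days and was then held at 28°C for 3 h. Both groups were R16 seedlings, droughted from 14 days after sowing, and both were incubated in the dark, so that drought and darkness were common to them. Each group had 3 arrays of leaf RNA, and each array was made from pooled tissue of the youngest leaves, so that differences between single plants were not measured. The study also held heat plants, watered and then held at 50°C for 3 h, and control plants, watered and then held at 28°C for 3 h, with 3 arrays each. A transcript was included when its probe was well above background on all 3 arrays of the combined group or on all 3 arrays of the drought group. Of the 28587 transcripts on the array, 21731 met this rule, and 19691 of them were well above background on all 6 arrays. A further 680 were measurable throughout the combined arrays alone and 1360 throughout the drought arrays alone.

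In plants, a heat shock unfolds proteins and releases heat shock factors, transcription factors that bind elements in the promoters of chaperone genes. Small heat shock proteins hold unfolded proteins, HSP70 with its DNAJ partners and HSP90 refold or stabilise them, and HSP101 pulls aggregates apart. Drought acts largely through abscisic acid (ABA), which raises dehydrins, other late embryogenesis abundant (LEA) proteins and the enzymes of compatible solutes. Setting heated against unheated droughted leaves asks what heat added when that drought programme was already running.

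Levels are given as log2 of the signal minus the 75th percentile of the same array, and a difference of 1 on this scale is 2-fold. They are not comparable between probes, so each value is set only against the same transcript in another group. The array design names transcripts by number, and sorghum gene identifiers with the name of the closest Arabidopsis gene were known for 2773 of the 21731 transcripts, because the study had listed them as changed by heat or by drought against control plants. Those listed for drought were chosen on the same drought arrays that serve here as the baseline. Some of the lists hold transcripts changed by only 1 of the treatments, which also used the combined arrays, and the spread in the fit was estimated on the arrays of all 4 groups, so counts over any of these lists are not independent of the choice.

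The 3 combined arrays were dimmer than the 3 drought arrays, with a median signal of 222 to 298 against 448 to 512, and their spiked-in control RNA stood higher above the 75th percentile, by 2.89 to 3.19 against 1.97 to 2.30 on the log2 scale. The share of spots well above background was 75% to 79.2% in combined and 76.6% to 81.3% in drought. The median SD between replicates was 0.40 in combined and 0.34 in drought, against 0.24 in heat and 0.23 in control (log2, 19197 transcripts, n = 3 each). Of 10 identified leaf marker transcripts, such as PSBR of photosystem II, the Rubisco small subunit and carbonic anhydrase, 9 were well above background on all combined arrays and 10 on all drought arrays. Their summed linear level, which includes the Rubisco activase transcript described below, was 206 to 243 in combined and 68.1 to 82.5 in drought. PSBR also weighed on this sum, at a mean log2 level of 7.06 in combined and 5.76 in drought. All 10 had been listed as changed by heat or drought, and NADP-ME1 was well above background on only 1 control array. The sum therefore reflects that choice and is no measure of leaf content. The 15 transcripts annotated as seed or embryo proteins, which include lipid transfer proteins also used by leaves, summed to 45.7 to 82.5 in combined and 52.7 to 156 in drought, with 1 of them on no drought array, and a single pollen-type transcript stood at 7.31 to 10.1 in combined and 0.72 to 2.48 in drought. The part of these tissues in the results was not tested. On these arrays fewer cells of a type and less RNA per cell cannot be told apart.

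Heat changed 25.8% of the measurable transcripts of droughted leaves. By limma, with the replicate number as a block, 3065 transcripts were higher in combined than in drought (14.1%) and 2550 were lower (11.7%), with more than a 2-fold difference and p under 0.05 after Benjamini-Hochberg adjustment. The rises were larger than the falls, with a median log2 ratio of 1.83 for the rises and -1.44 for the falls. A log2 ratio of 3 was exceeded in size by 669 rises and 62 falls, and one of 5 by 157 rises and 0 falls. The lowest signal well above background was higher on the combined arrays, at -6.47 to -6.17, than on the drought arrays, at -7.40 to -7.06. Falls of dim transcripts thus had less room than rises, and the part of this in the difference was not tested. Requiring a change over 2-fold in each of the 3 same-numbered pairs of arrays gave 1774 rises (8.16%) and 1327 falls (6.11%), of which limma also called 1759 and 1268. Every combined array lay above every drought array for 3949 transcripts (18.2%) and below for 4238 (19.5%). The third pair gave the smallest ratios, with a median log2 ratio of 1.48 over the rises, against 2.16 in the first and 2.03 in the second, and of -1.24 over the falls, against -1.62 and -1.56.

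**Figure D1:**
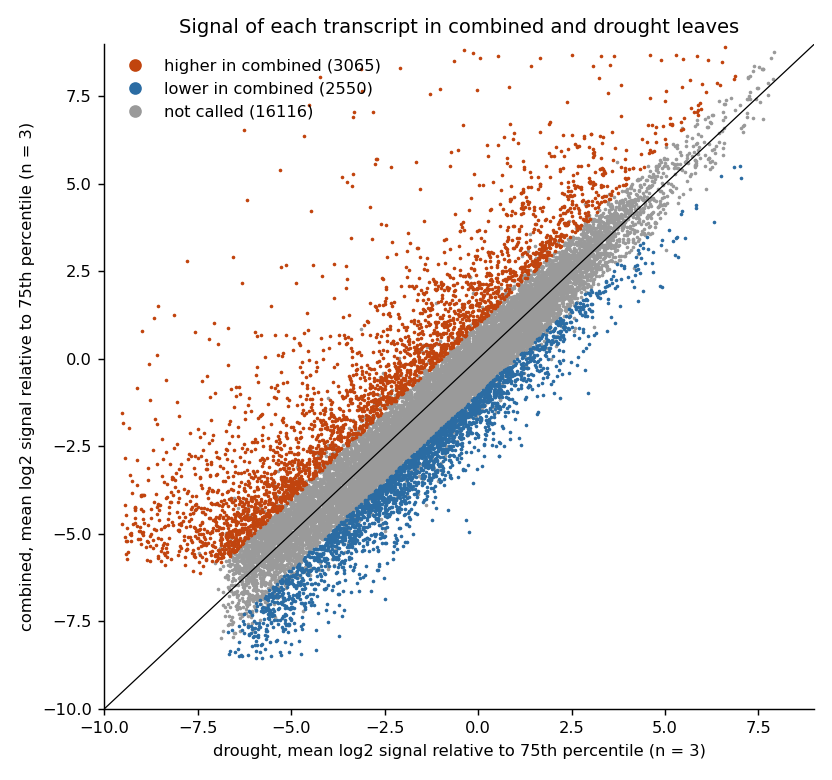
Mean log2 signal of each of the 21731 transcripts, relative to the 75th percentile of its array, in combined (vertical axis) and drought (horizontal axis), n = 3 arrays each. Red points mark the 3065 transcripts called higher in combined, blue the 2550 called lower, and the line marks equal signal; the rises reach farther from the line than the falls.

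These counts depend on the libraries and on the scaling. Without the first replicate limma called 1377 rises and 860 falls, and with the position of the array on its slide as a further factor it called 1271 and 705. Combined arrays lay at positions 1, 1 and 2 of their slides and drought arrays at 3, 4 and 3. Between these groups heat and slide position therefore cannot be told apart. Only the heat and control arrays let the fit with position separate them. Scaled to the spiked-in RNA instead, the median ratio of all transcripts was -0.97 in place of -0.05 and the calls were 1371 rises and 10364 falls, so that rises were 11.7% of calls against 54.6%. All directions below are therefore relative to the bulk of the transcripts on the same array. Of the calls named below, those of the universal stress protein Sb03g008310.1, the LEA protein Sb01g021320.1, ERD10, CYP707A4, KCS12, UGT72B3, HB-3, ATHB40, Sb02g010760.1 and Sb01g038670.1 were lost with slide position as a factor. This covers the 141 called transcripts that were named by rule. Other list members cited below, HSFA3 among them, were not followed one by one under that setting. Transcripts with the lowest signal in control leaves rose most often, 26.7% of the lowest quartile against 7.97% to 11.9% of the others. In that quartile, however, only 65.2% were measurable on all 6 arrays, and the rest entered through the group where they were high.

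Of the transcripts with an identifier, 39.6% rose and 20.3% fell. Among those listed for heat alone, 55.5% rose and 23.8% fell, and among those listed for drought alone, 6.73% rose and 16.9% fell. The counts for the gene groups below are to be read against these shares. Not all of the transcripts listed for heat were used here, so that the groups hold only some members of each family.

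Small heat shock proteins had the highest median ratio of the gene lists. Of 24 identified members 23 rose and 0 fell, with a median log2 ratio of 8.43 over the 24. HSP22 (Sb06g017850.1), named after a small heat shock protein of the Arabidopsis endomembrane system, stood at 8.35, 7.44 and 8.35 on the combined arrays and at -4.23, -3.41 and -5.07 on the drought arrays. The lowest combined value was thus far above the highest drought value, and the log2 ratio was 12.28 ± 0.52 (SE, adjusted p = 1.4e-06). HSP18.2 (Sb03g006920.1), a cytosolic class I protein, had 7.78, 6.96 and 8.26 in combined and -3.71, -3.45 and -2.16 in drought. Its log2 ratio was 10.77 ± 0.33. The plastid protein HSP21 (Sb07g028370.1) had 8.40, 7.88 and 8.69 in combined and -2.77, -1.83 and -1.68 in drought, a log2 ratio of 10.42 ± 0.45. Again all 3 combined arrays lay above all 3 drought arrays. A class I HSP17.6 (Sb04g030135.1) with a log2 ratio of 10.74 was well above background on only 1 drought array. Mitochondrial members rose as well, with log2 ratios of 9.18 for Sb04g027330.1 and 5.48 for Sb10g007570.1. The member that was not called, a class P-related protein (Sb02g034760.1), had log2 ratios of -0.37, -1.74 and 0.98 in the 3 pairs. Several members carry the same name and neighbouring gene numbers, among them the HSP18.2 transcripts Sb03g006870.1 to Sb03g006920.1, and probes for such copies may share target.

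The ATP-dependent chaperones rose together. Of 32 members of the HSP70, HSP90, HSP101 and chaperonin group 31 rose and 0 fell, with a median log2 ratio of 4.04. HSP101 (Sb03g034390.1), the disaggregase needed for acquired thermotolerance in Arabidopsis, had 6.58, 5.60 and 7.41 in combined and -6.58, -5.97 and -6.28 in drought. With a log2 ratio of 12.80 ± 0.65 (adjusted p = 3.4e-06) this was the largest rise among transcripts measurable on all 6 arrays. HSP90.1 (Sb06g000660.1), the heat-inducible cytosolic HSP90, had 8.35, 7.84 and 8.62 in combined and -4.17, -2.54 and -2.67 in drought, a log2 ratio of 11.40 ± 0.49. The constitutive type of HSP90, HSP81-2, was represented by 3 transcripts with log2 ratios of 3.98, 4.11 and 4.78. HSC70-2 (Sb01g039436.1), a cytosolic HSP70, had 5.39, 3.88 and 6.56 in combined and -3.02, -4.51 and -2.51 in drought, a log2 ratio of 8.63 ± 0.35. HSC70-1 (Sb01g039510.1), not well above background on the drought arrays, stood at least 62.7-fold higher in combined (adjusted p = 4.2e-06). Such bounds set the mean of the brighter group against, on each array of the dimmer group, the higher of the probe's own value and the lowest signal that was well above background. The adjusted p given beside a bound is that of the limma fit on the signals as measured, and the bound itself was not tested. The plastid chaperonins CPN60A and CPN60B, which fold Rubisco, also rose, with log2 ratios between 2.66 and 3.95 over 3 transcripts. The only member not called was a further transcript named HSP101 (Sb04g021960.1), with a log2 ratio of 0.73 (adjusted p = 0.053).

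**Figure D2:**
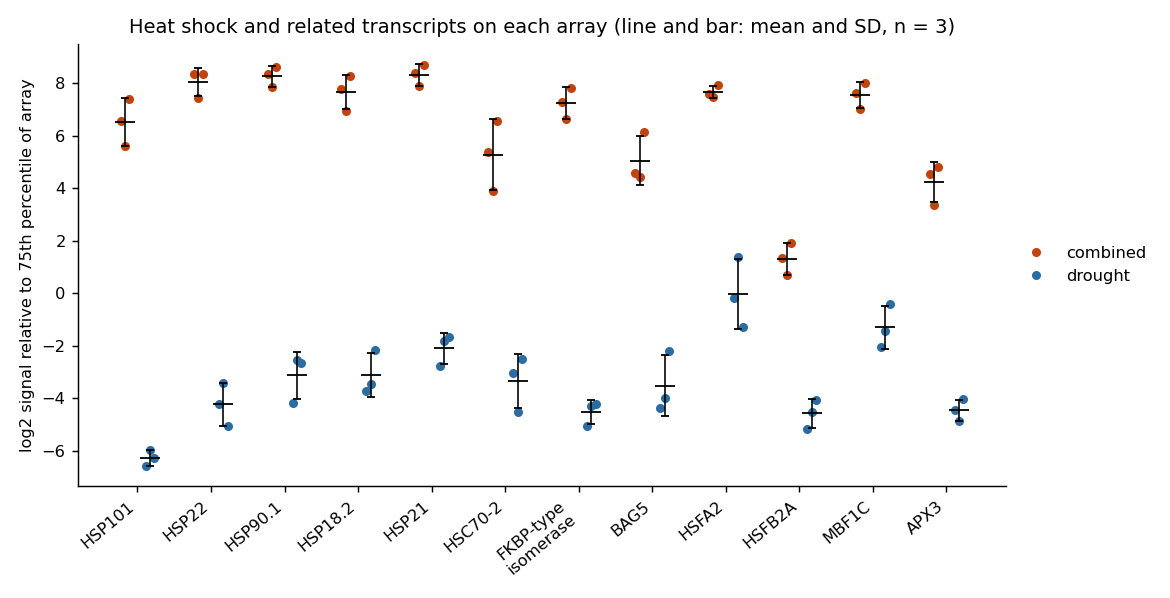
Log2 signal relative to the 75th percentile on each combined (red) and drought (blue) array for 12 transcripts of the heat shock response, with the mean and SD of each group (n = 3). For every transcript shown the 3 combined values lie above the 3 drought values, by a log2 ratio between 5.90 for HSFB2A and 12.80 for HSP101.

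Co-chaperones and folding helpers followed, with 20 of 26 higher, 0 lower and a median log2 ratio of 2.97. An FKBP-type peptidyl-prolyl isomerase (Sb10g012970.1), an enzyme that turns proline bonds during folding, had 7.28, 6.63 and 7.83 in combined and -5.04, -4.30 and -4.22 in drought. Its log2 ratio was 11.77 ± 0.26 (adjusted p = 4.7e-08). BAG5 (Sb05g018030.1), of a family of HSP70 regulators, had 4.59, 4.44 and 6.16 in combined and -4.39, -3.97 and -2.20 in drought, a log2 ratio of 8.58 ± 0.49. MBF1C (Sb10g023010.1), a transcriptional coactivator that controls thermotolerance in Arabidopsis and was kept with this group, had 7.63, 7.04 and 8.03 in combined and -2.04, -1.45 and -0.40 in drought. The groups of arrays did not overlap for any of these transcripts.

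All 8 identified chaperones of the endoplasmic reticulum were higher in combined, with a median log2 ratio of 3.24. BIP2 (Sb04g001140.1), an HSP70 of that compartment, had 1.55, 1.47 and 1.66 in combined and -2.31, -2.71 and -2.44 in drought, and its log2 ratio of 4.05 ± 0.24 varied little between pairs. SHEPHERD (Sb10g030240.1), the HSP90 of the same compartment, had a log2 ratio of 3.34 ± 0.19. A transcript named BIP1 (Sb01g010460.1) had a log2 ratio of 10.59 but was well above background on only 1 drought array. Calnexin and calreticulin, lectin chaperones of glycoproteins, had log2 ratios between 2.15 and 3.12 over 3 transcripts.

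Heat shock factors rose in 9 of 10 cases, with a median log2 ratio of 4.22 over the 10. HSFA2 (Sb10g022340.1), which in Arabidopsis sustains the heat response, had 7.60, 7.49 and 7.93 in combined and -0.17, 1.37 and -1.30 in drought. Its log2 ratio was 7.71 ± 0.55 (adjusted p = 1.9e-05). HSFB2A (Sb06g025710.1), of a class that acts as repressors, had 1.33, 0.70 and 1.93 in combined and -5.16, -4.51 and -4.07 in drought, a log2 ratio of 5.90 ± 0.36. Of the HSFA6B transcripts, Sb01g021490.1 had a log2 ratio of 5.66 ± 0.39, and Sb01g046350.1 had one of 9.46 ± 0.59 with only 2 of the drought arrays well above background. HSFA3 (Sb04g021490.1), a factor downstream of DREB2 proteins in Arabidopsis, was called with a log2 ratio of 1.57 (adjusted p = 0.047), but the ratio was -0.08 in the third pair. An HSFC1 transcript (Sb04g008300.1) listed for drought was not called, with a log2 ratio of -0.59.

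Enzymes that act against reactive oxygen were also among the rises. Of 29 antioxidant enzymes 17 were higher and 4 lower. Of the 20 listed for heat alone 16 were higher and 3 lower, beside 55.5% and 23.8% of all transcripts listed for heat alone. APX3 (Sb06g001970.1), an ascorbate peroxidase that removes hydrogen peroxide, had 4.54, 3.35 and 4.80 in combined and -4.47, -4.88 and -4.05 in drought, with no overlap and a log2 ratio of 8.70 ± 0.26 (adjusted p = 2.4e-07). Glutathione transferases, which conjugate toxic compounds to glutathione, were represented by GSTF13 (Sb01g001230.1) with a log2 ratio of 3.68 ± 0.34 and by a microsomal enzyme (Sb01g010550.1) with 3.59 ± 0.24. GSTT3 (Sb03g026995.1) was measurable on no drought array, which put combined at least 4.52-fold higher (adjusted p = 0.00075). Of 5 universal stress proteins, Sb04g034630.1 had 6.07, 4.95 and 5.85 in combined and -1.95, -3.04 and -0.01 in drought, a log2 ratio of 7.29 ± 0.53, while Sb03g008310.1 fell, with a log2 ratio of -1.45 ± 0.28, or of -0.68 with slide position as a factor.

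The LEA proteins and dehydrins, which protect cells as they dry, moved in both directions. Of 19 members 5 rose, 4 fell and 10 were not called, with a median log2 ratio of 0.15. All but 1 of them were listed for drought, so their drought values had been chosen to be changed. The dehydrin ERD10 (Sb04g032250.1) had 8.82, 8.0 and 8.63 in combined and 6.76, 5.38 and 7.46 in drought, a log2 ratio of 1.95 ± 0.34 whose call was lost without the first replicate. GEA6 (Sb09g016810.1), the member listed for heat alone, had -3.26, -3.67 and -3.69 in combined and -5.60, -5.77 and -5.66 in drought. Its log2 ratio of 2.14 ± 0.16 was close to that of ERD10, with less spread between arrays. In contrast, the LEA protein Sb01g021320.1 had -6.30, -7.84 and -5.74 in combined, with only 1 array well above background, and -3.70, -4.79 and -2.39 in drought. This was a fall in every pair, with a log2 ratio of -3.0 ± 0.46 (adjusted p = 0.0012), although combined and drought arrays lay apart by less than the range within either. The study gives this gene as an example of those raised by drought alone. Its choice thus used the combined arrays as well, and neither the fall nor its p-value is independent of that choice. The dehydrin RAB18 (Sb09g018420.1), a widely used marker of ABA responses, was not called at a log2 ratio of 0.65 (adjusted p = 0.18). Without the replicate block 3 LEA members rose and 1 fell, and without the first replicate 1 rose and 1 fell.

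ABA signalling and turnover gave 6 rises and 4 falls among 23 members. A protein phosphatase 2C (Sb09g022410.1), of the family that holds back ABA signalling, had 1.93, 1.30 and 1.53 in combined and -1.55, -1.96 and -0.69 in drought, a log2 ratio of 2.99 ± 0.28. CYP707A4 (Sb02g026600.1), an ABA-degrading hydroxylase, had a log2 ratio of 3.37 ± 0.64, but its pairs ran from 0.87 to 5.28 and the call was lost without the first replicate. A transcript named OST1 (Sb01g028760.1), after a kinase that transmits the ABA signal in guard cells, was listed for drought and was not called at a log2 ratio of -0.03 ± 0.47. It need not be the OST1 that the study names as raised only by combined stress. P5CS2 (Sb03g039820.1), which makes proline, had 3.11, 2.0 and 4.46 in combined and 3.35, 1.83 and 4.03 in drought, and these ranges overlapped (log2 ratio 0.12 ± 0.40). In the raffinose pathway, galactinol synthase GolS1 (Sb01g037090.1) had 7.90, 6.98 and 8.12 in combined and 5.56, 3.26 and 6.29 in drought, a log2 ratio of 2.63 ± 0.50. Stachyose synthase (Sb05g026330.1) was measurable on no drought array, and combined was at least 13.2-fold higher (adjusted p = 0.00012). Proline, raffinose and trehalose enzymes together gave 5 rises and 0 falls among 10, of which 8 were listed for drought.

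**Figure D3:**
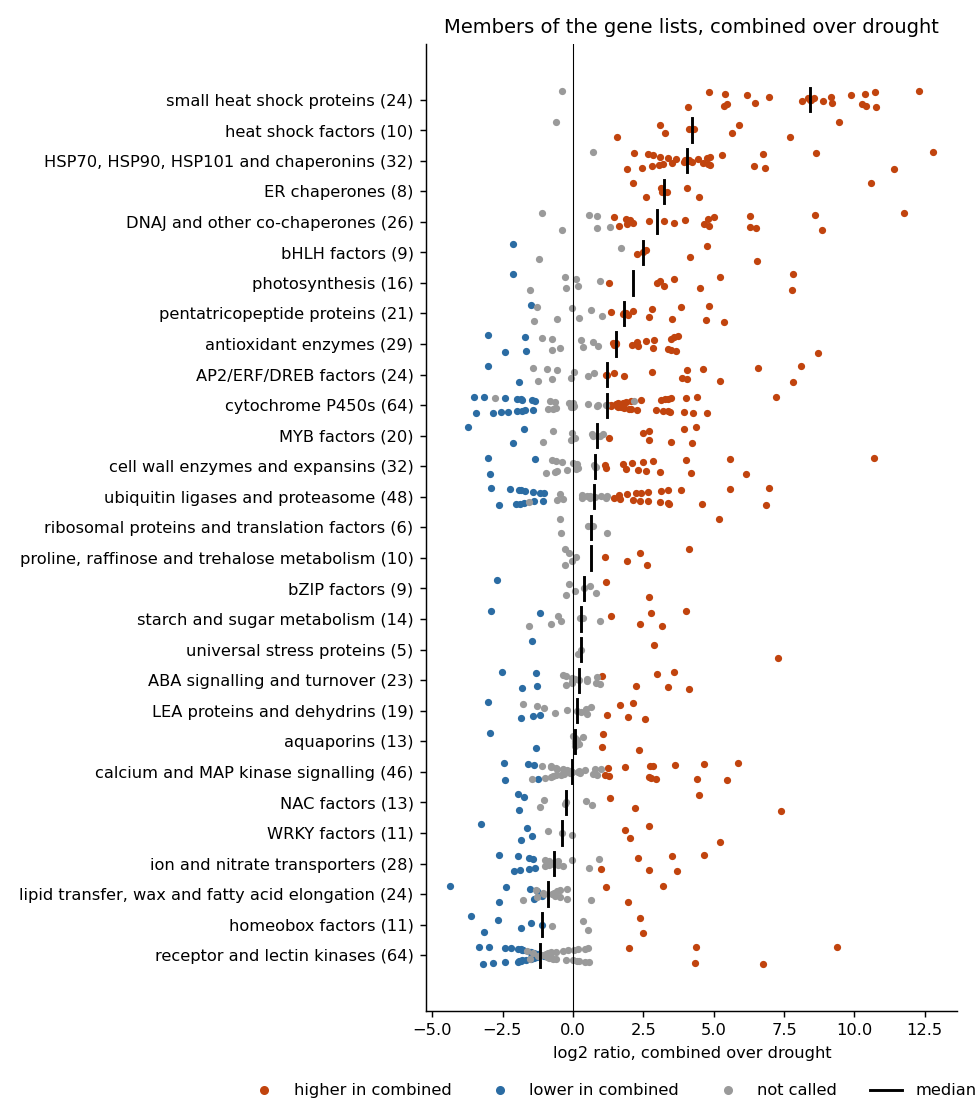
Log2 ratio, combined over drought, of the members of each gene list with 5 or more members (number in brackets), with called rises in red, called falls in blue, transcripts not called in grey and the median as a bar. Small heat shock proteins have the highest median (8.43), and homeobox factors (-1.10) and receptor and lectin kinases (-1.15) lie at the low end.

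Among photosynthesis transcripts 9 of 16 rose and 1 fell. Rubisco activase (Sb05g027880.1), which frees Rubisco of inhibitory sugars, had 5.73, 5.53 and 5.22 in combined and -2.35, -3.02 and -1.63 in drought, with a log2 ratio of 7.82 ± 0.40 (adjusted p = 3.3e-06). The activase probe reports 1 transcript and says nothing of other activase transcripts. Ferredoxin 3 (Sb03g040610.1), an electron carrier, had a log2 ratio of 4.53 ± 0.19, and PEP carboxylase kinase PPCK1 (Sb06g022690.1) one of 5.23 ± 0.36. Both are in this list by the words of their annotation, and a part of either in photosynthesis was not tested. The Rubisco small subunit (Sb05g003480.1) and LHCB6 (Sb06g032690.1) of the photosystem II antenna were not called, at log2 ratios of 0.20 and -0.28. The single fall was a pyruvate phosphate dikinase transcript (Sb01g031660.1), with a log2 ratio of -2.11 and 1 combined array well above background.

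Among transcription factors, AP2/ERF/DREB factors rose in 13 of 24 cases and fell in 2, and bHLH factors rose in 6 of 9 and fell in 1. ERF1 (Sb01g000352.1), an ethylene response factor, had 3.36, 1.92 and 2.78 in combined and -4.70, -5.71 and -5.04 in drought, a log2 ratio of 7.83 ± 0.35. A DREB1A transcript (Sb02g030310.1), named after a cold-response factor of Arabidopsis, had a log2 ratio of 6.59 ± 0.39. RAP2.6 (Sb06g016710.1) had a log2 ratio of 8.10 ± 0.90, with pairs between 4.79 and 10.01 and 1 drought array well above background. MYB factors gave 8 rises and 3 falls among 20, and NAC factors 4 rises and 3 falls among 13. Transcripts named MYB78 (Sb08g018370.1) and ATAF1 (Sb09g020750.1), both listed for drought, were not called, at log2 ratios of 1.07 ± 0.66 and 0.48 ± 0.36. The study names a MYB78 and an ATAF1 as changed only by combined stress, and these drought-listed transcripts need not be the same ones. WRKY factors, many of which act in defence, gave 4 rises and 4 falls among 11, and WRKY46 (Sb08g002590.1), on no drought array, was at least 31.0-fold higher in combined (adjusted p = 1.0e-05).

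Homeobox factors fell more often than they rose, 6 against 2 of 11. Of the 11, 8 were listed for drought, and so chosen on the drought arrays that form the baseline. Only 1 of the 6 falls was listed for heat alone, so the direction of this group depends on that choice. HB-3 (Sb02g043300.1) had -2.23, -3.93 and -1.26 in combined and 0.79, 0.55 and 2.11 in drought, a log2 ratio of -3.62 ± 0.78 (adjusted p = 0.006). ATHB40 (Sb01g043910.1), named after an Arabidopsis factor of the HD-ZIP I class, had -1.07, -3.99 and -0.64 in combined and 1.99, 0.08 and 1.75 in drought, a log2 ratio of -3.17 ± 0.78. For both, the highest combined array lay below the lowest drought array, but the HB-3 call was lost without the second replicate and the ATHB40 call without the first. With slide position as a factor both calls were lost, at log2 ratios of -3.15 for HB-3 (adjusted p = 0.067) and -0.96 for ATHB40 (adjusted p = 0.34). Both were listed for drought alone.

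Receptor and lectin kinases, which sense signals at the cell surface, fell more often than they rose. Of 64 members 29 fell, 5 rose and 30 were not called, with a median log2 ratio of -1.15, or of -1.01 with the 7 members that have only a bound set at it. In the 41 listed for heat alone 25 fell and 4 rose. ARK3 (Sb02g021800.1), a receptor kinase, was well above background on no combined array and was at least 6.20-fold lower there (adjusted p = 0.0001). The rises included a lectin protein kinase (Sb08g020850.1), measurable on no drought array and at least 348-fold higher in combined (adjusted p = 4.2e-06), and PR5K (Sb03g008160.1), with 4.41, 2.72 and 4.63 in combined and -0.39, -0.63 and -0.18 in drought. Without the first replicate 8 members of this group fell and 3 rose.

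Genes of the leaf surface and of cell walls were called no more often than identified transcripts as a whole. Lipid transfer, wax and fatty acid elongation transcripts fell in 7 of 24 cases and rose in 3. KCS6 (Sb03g023131.1), the condensing enzyme for wax precursors, had 0.96, 1.35 and 0.78 in combined and 4.05, 3.93 and 2.99 in drought, a log2 ratio of -2.63 ± 0.28 (adjusted p = 0.0002). KCS12 (Sb01g033910.1) had a larger mean fall, with a log2 ratio of -4.35 ± 0.89, but its pairs ran from -6.77 to -1.15, 1 combined array was well above background, and the call was lost without the first or the second replicate. FATB (Sb10g002990.1), which releases saturated fatty acids from the plastid, rose with a log2 ratio of 3.20 ± 0.49. Cell wall enzymes and expansins gave 15 rises and 3 falls among 32. A pectinesterase (Sb06g030310.1), which removes methyl groups from pectin, had 6.19, 3.85 and 6.12 in combined and -5.47, -6.03 and -4.43 in drought, a log2 ratio of 10.70 ± 0.53.

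Water channels and ion transporters showed no common direction. Of 13 aquaporins 3 rose and 2 fell, and 8 were not called. TIP4;1 (Sb09g007940.1), of the vacuolar membrane, had -1.73, -2.18 and -2.35 in combined and 0.88, 1.31 and 0.33 in drought, a log2 ratio of -2.93 ± 0.27. The plasma membrane channel PIP2B (Sb04g026650.1) had 5.42, 4.98 and 4.02 in combined and 2.37, 2.05 and 3.00 in drought, a log2 ratio of 2.33 ± 0.47 that was lost as a call without the first or the second replicate. Of 6 further PIP2B transcripts with neighbouring gene numbers, Sb02g010760.1 to Sb02g010830.1, the first rose, at a log2 ratio of 1.08 (adjusted p = 0.017), and the other 5 were not called, at log2 ratios between 0.08 and 0.35. Ion and nitrate transporters rose in 6 of 28 cases and fell in 8. HKT1 (Sb06g027900.1), a sodium transporter, had -1.66, -4.88 and -1.98 in combined and -2.15, -3.91 and -0.83 in drought, so that the groups overlapped (log2 ratio -0.54 ± 0.72). Of the transcripts named HAK5, a potassium transporter, Sb07g027710.1 was well above background on no combined array. It was called lower there (limma, adjusted p = 0.0016), but its bound of 1.07-fold is under 2-fold and the call was lost without the first replicate. Sb06g014930.1 was not called at a log2 ratio of -0.62 ± 0.34. The study names a HAK5 as raised only by combined stress, which need not be either transcript.

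Other groups were mixed. Cytochrome P450s gave 31 rises and 16 falls among 64, with CYP51G1 (Sb02g036650.1) of sterol synthesis at a log2 ratio of 4.78 ± 0.28 and CYP94C1 (Sb09g021890.1), a fatty acid hydroxylase, at -3.50 ± 0.35. CYP94C1 had -4.12, -5.41 and -3.41 in combined and -0.52, -1.74 and -0.19 in drought. Ubiquitin ligases and proteasome transcripts gave 20 rises and 14 falls among 48, led by a RING finger protein (Sb02g040220.1) with a log2 ratio of 6.97 ± 0.41. Calcium and MAP kinase signalling gave 14 rises and 5 falls among 46, and an EF-hand protein (Sb02g024550.1) had 6.77, 6.53 and 6.81 in combined and 0.51, 0.27 and 1.76 in drought. A transcript named MPK20 (Sb03g030450.1), a MAP kinase listed for drought, was not called at a log2 ratio of -0.31 ± 0.39. It need not be the MPK20 that the study names as raised only by combined stress. Pentatricopeptide proteins, which process organelle RNA, gave 13 rises and 1 fall among 21. Polyamine oxidase PAO2 (Sb06g028970.1) had a log2 ratio of 3.61 ± 0.41.

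The falls were spread over transcripts of varied annotation. The largest fall among identified transcripts measurable on all 6 arrays, Sb02g043280.2, has no annotation, and it had -4.64, -4.21 and -4.95 in combined and -0.15, 0.25 and -1.09 in drought, a log2 ratio of -4.27 ± 0.32 (adjusted p = 2.6e-05). The glucosyl transferase UGT72B3 (Sb02g022260.1) had -0.12, -0.85 and -1.98 in combined and 4.28, 4.50 and 0.07 in drought. Its log2 ratio was -3.93 ± 0.71, the third drought array lay far below the other two, and the call was lost without the first replicate. A senescence-associated protein (Sb04g024610.1) had -1.13, 0.14 and -2.35 in combined and 2.33, 2.71 and 1.51 in drought, without overlap and with a log2 ratio of -3.30 ± 0.33.

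The same heat treatment was also given to watered plants, and its fold changes rest on the heat and control arrays, although all 4 groups shared the 3 slides and the estimate of the spread. Of the 2604 transcripts over 2-fold higher in heat than in control in all 3 pairs, 1799 rose in combined against drought and 1 fell. These 1799 were 69.1% of the heat rises and 58.7% of the combined rises. Of the 2301 over 2-fold lower in heat, 1350 fell in combined against drought and 2 rose, which is 58.7% of the heat falls and 52.9% of the combined falls. Among the remaining 16826 transcripts 7.51% rose and 7.13% fell. Over 19239 transcripts measurable on all 12 arrays the log2 ratios for combined over drought and for heat over control had a Pearson's r of 0.84 and a Spearman's rho of 0.79, given as a description across transcripts, which are not independent. The median log2 ratio of the heat rises was 1.71 in droughted plants and 2.18 in watered plants, but these transcripts were chosen for being high in the heat arrays.

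**Figure D4:**
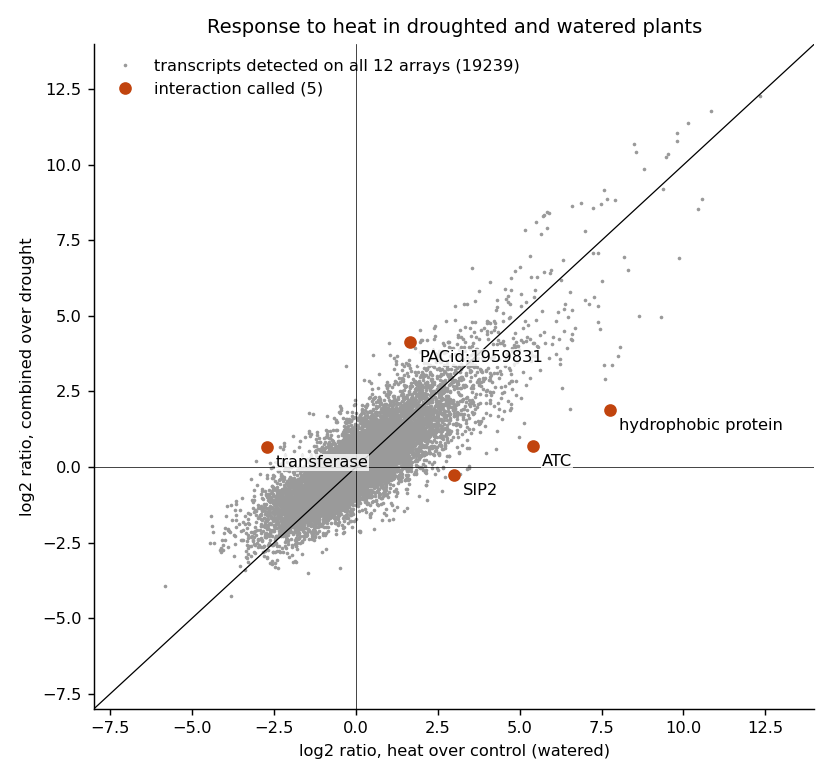
Log2 ratio of combined over drought (vertical axis) against log2 ratio of heat over control (horizontal axis) for 19239 transcripts measurable on all 12 arrays (grey), with the 5 transcripts whose ratios differed by the interaction test in red. The line marks an equal response, and most transcripts lie along it.

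A direct test of whether heat acted differently in droughted than in watered plants, as the interaction in the same limma fit, gave few calls. At an adjusted p under 0.05, 2 transcripts responded higher in droughted plants (0.0092%) and 3 lower (0.0138%), while 3630 had an unadjusted p under 0.05 (16.7%). Without the replicate block, 0 transcripts passed, and leaving out any replicate also left 0. With array quality weights, however, 1113 responded higher and 679 lower, and with spike-in scaling 10 and 411, so that the number of differing responses is not settled by these arrays. The median SE of the interaction, 0.35 on the log2 scale, was larger than the 0.25 of combined over drought.

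Of the transcripts with a lower response in droughted plants, the hydrophobic, low temperature and salt responsive protein Sb01g038670.1, a small membrane protein, had 7.14, 6.44 and 6.31 in combined, 4.65, 3.62 and 5.98 in drought, 4.43, 4.79 and 4.34 in heat and -3.12, -3.70 and -2.89 in control. The drought and heat arrays thus lay near each other, and control was far below. Its log2 ratio was 1.88 for combined over drought and 7.76 for heat over control, a difference of -5.88 ± 0.66 (adjusted p = 0.046). SIP2 (Sb02g006320.1), named after an Arabidopsis enzyme that splits raffinose, had 5.70, 4.96 and 5.98 in combined, 5.74, 5.37 and 6.32 in drought, 1.07, 1.36 and 1.34 in heat and -1.63, -2.0 and -1.58 in control. The heat arrays all lay above the control arrays, whereas the combined and drought arrays overlapped, with a difference of -3.26 ± 0.33 (adjusted p = 0.035). ATC (Sb05g003200.1), a relative of flowering regulators that bind phosphatidylethanolamine, had 1.12, 1.74 and 2.66 in combined, 0.47, 0.44 and 2.54 in drought, -2.74, -0.51 and -0.17 in heat and -7.17, -6.92 and -5.51 in control, a difference of -4.71 ± 0.55 (adjusted p = 0.047).

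In the other direction, a transferase (Sb03g040180.1) had 2.04, 1.98 and 2.24 in combined, 1.33, 1.05 and 1.89 in drought, -1.70, -1.48 and -0.63 in heat and 1.34, 0.85 and 2.21 in control. It was lower in heat than in control, while the combined arrays were all above the drought arrays, a difference of 3.40 ± 0.32 (adjusted p = 0.035). A transcript without identifier (PACid:1959831), named after its values were seen, had -2.58, -3.87 and -2.57 in combined, -7.06, -7.96 and -6.44 in drought, -4.69, -5.40 and -4.13 in heat and -6.42, -6.96 and -5.83 in control. It was higher with heat in both settings, with a difference of 2.48 ± 0.27 (adjusted p = 0.040), and 2 drought arrays were well above background.

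**Figure D5:**
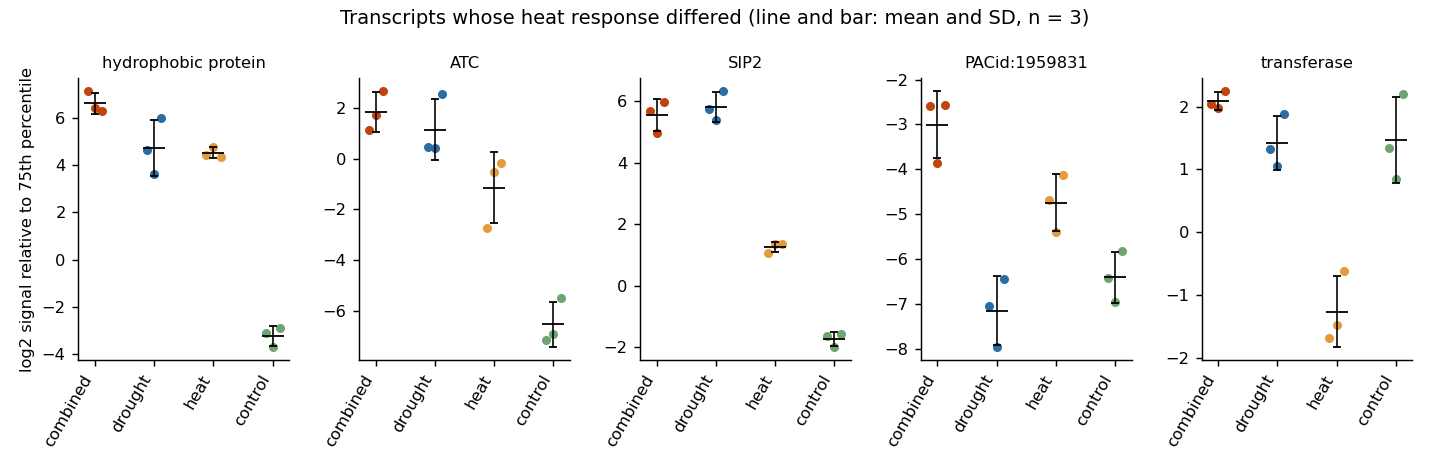
Log2 signal relative to the 75th percentile on each array of the combined, drought, heat and control groups for the 5 transcripts whose heat response differed between droughted and watered plants, with mean and SD (n = 3). In the 3 panels with a lower response in droughted plants, the drought arrays lie near the combined arrays or between them and control; in the transferase panel only the heat arrays are low.

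Among the heat shock groups 0 members passed the interaction test. Of all 21731 transcripts only 2 passed as higher and 3 as lower, so this count says little about these groups. HSP101 (Sb03g034390.1) had a log2 ratio of 12.80 for combined over drought and 11.46 for heat over control, an interaction of 1.34 ± 0.93 (adjusted p = 0.47). That of HSP22 was -0.05 ± 0.74. The class I HSP17.6 (Sb04g030135.1) had 2.97 ± 0.64 (adjusted p = 0.14), but it was well above background on only 1 drought array and 0 control arrays. The median log2 ratio of the small heat shock proteins was 8.43 for combined over drought and 7.55 for heat over control, and that of the heat shock factors was 4.22 and 3.10. LEA proteins and dehydrins had medians of 0.15 and 0.79, and the proline, raffinose and trehalose enzymes of 0.62 and 2.89, in the same order. Of these, 18 of the 19 LEA members and 8 of the 10 enzymes were listed for drought. They were chosen on the drought arrays that form the baseline of the first ratio alone, so these medians depend on that choice. The differences between these medians were not tested.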

How the data were processed

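Leaf RNA was measured on 1-colour Agilent arrays. The authors deposited the spot intensities of each array, extracted with Agilent Feature Extraction 10.7.3.1 and not normalized between arrays, and a table of normalized log2 values made in GeneSpring, which the authors had centred on each probe's median over the 12 arrays. The processed signal was put on a log2 scale minus the array's 75th percentile, flagged spots were left out, spots of a probe were averaged, and the brightest of several probes was used (108 transcripts). The number of arrays limits the precision. Fits used limma 3.58.1 in R 4.3.3 on all 12 arrays, and were tested on simulated data. The replicate number marks the slide, and arrays with the same number were paired as part of the design. The deviations of combined and drought arrays with the same number correlated at 0.37, 0.62 and 0.39. Between the other groups such correlations ran from 0.04 to 0.56, and the correlations did not decide the pairing. The methods name 3 biological replicates.

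Identifiers were taken from the study's tables of changed transcripts by matching, within 2e-05 log2, fold changes there with differences in the deposited normalized table. All 2964 were matched, and no fold change of those tables is printed. Gene lists were built from annotation words, and false matches were removed by annotation text after the counts had been seen, so no test is made on a list. The transcripts, the lists and the tests were chosen with earlier results of these data known. Named were, among identified transcripts and 1 per gene, the 12 largest called changes each way on all 6 arrays and the 5 largest bounds each way. Up to 4 called members of each list and the interaction calls were also named, with up to 2 rises and 2 falls without identifier. List members whose annotation carries a gene name used by the study were added, and these need not be the transcripts the study meant. The text gives those that bear on a group, and other list members it cites were picked after their values were seen. The alternatives tried are the replicate block, scaling, background correction, filters, probe choice, slide position, array weights, thresholds and each replicate left out. Sequences and genome positions were not used here. Summaries and plots were made in python 3.11.15 (pandas 2.3.3, numpy 2.4.6, matplotlib 3.10.9).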

Additional observations from a re-analysis of the deposited data

Results flagged for a closer look

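The response to heat differed between droughted and watered plants for 5 transcripts, by the interaction test in limma over all 12 arrays. The difference, combined over drought minus heat over control, was -5.88 for Sb01g038670.1, -4.71 for Sb05g003200.1, -3.26 for Sb02g006320.1, 3.40 for Sb03g040180.1 and 2.48 for PACid:1959831 on the log2 scale, with adjusted p between 0.035 and 0.047. Of these, 0 passed without the replicate block, where the adjusted p ran from 0.091 for Sb01g038670.1 to 0.325 for PACid:1959831. Groups of 3 arrays are too small for a test of single deviating arrays.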

How the results depend on the processing

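The limits are mainly those of 3 arrays a group, of the first replicate, of the slide position and of the scaling. No slide position held both a combined and a drought array. Where results changed, the cause was not tested. The spike-in scaling was chosen after seeing the data. Limma's 3065 rises and 2550 falls became 1942 and 1648 with normexp background correction and quantile normalization, 1371 and 10364 with spike-in scaling, and 1271 and 705 with slide position as a factor. Without a replicate they ranged over 1377 to 3691 rises and 860 to 3331 falls, by adjusted p alone there were 4243 rises and 4412 falls, and with quantile normalization 2661 and 2952, so that falls outnumbered rises under both. Without the replicate block limma called 2666 rises and 2208 falls, of which 2662 and 2205 were among those called with it. Changes over 2-fold in every pair became 988 rises and 761 falls with normexp, 770 and 5548 with spike-in scaling, 2919 and 2828 at 1.5-fold, 1018 and 393 at 3-fold, and 1890 to 3168 rises and 1481 to 2779 falls when a replicate was left out. The interaction calls, 2 higher and 3 lower in droughted plants, became 0 and 0 without the replicate block, with slide position, with no filter on dim probes and without any 1 replicate. They became 5 and 4 with median scaling, 1 and 3 with quantile normalization, 1 and 1 with normexp, 5 and 5 with the deposited values, 4 and 6 among transcripts measurable on all 6 arrays, 10 and 411 with spike-in scaling, and 1113 and 679 with array quality weights, which were estimated gene by gene because the REML estimate did not converge. Of the receptor and lectin kinases, 50 fell with spike-in scaling, and without a replicate 8 to 39 fell and 3 to 6 rose. Of the LEA proteins and dehydrins, 3 rose without the replicate block, with quantile normalization and with spike-in scaling, and 1 to 5 without a replicate. In that group 1 fell without the block, 9 with spike-in scaling and 1 to 4 without a replicate. Among 141 named transcripts with a call, 0 changed direction under the settings tried. Most of them were named for large ratios, so their kept direction says little of the other calls. Of the 141 calls, 38 were lost with slide position, 26 without the first replicate and 13 without the second. A further count of 11 were lost with normexp, 5 with spike-in scaling and 3 without the block, and these losses can overlap. Dim probes limit both directions, since 196 rises had no drought array and 216 falls no combined array well above background, and with no filter on dim probes there were 4393 rises and 2565 falls.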

Other observations

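Some of the strongest responses belonged to transcripts of unknown function. Sb02g042790.1, annotated as an unknown protein, had 6.35, 5.72 and 7.08 in combined and -4.78, -4.84 and -4.38 in drought, a log2 ratio of 11.05 ± 0.32 (limma, adjusted p = 2.4e-07), and PACid:1982157, which has no identifier, had 7.70, 7.44 and 7.96 in combined and -1.71, -0.24 and -1.12 in drought. Neither transcript had overlapping groups. Sb07g001530.1, Sb08g000570.1 and Sb02g028060.1 were well above background on no drought array and were at least 415-fold, 326-fold and 254-fold higher in combined (adjusted p = 7.1e-07, 2.7e-05 and 9.7e-07). Among the falls, PACid:1952077 had -5.42, -4.66 and -5.61 in combined and -2.77, -0.78 and -2.28 in drought, and Sb10g030890.1, an unknown protein on no combined array, was at least 8.30-fold lower in combined (adjusted p = 0.00012).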
